A study of Mus musculus with 8 samples.

Results

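Gene expression was compared between Hdac3 KO and wild-type (WT) dorsal cerebral cortex of newborn mice. The comparison used the 4 cortex libraries of a series of 8, which also holds cultured neurospheres that were not analysed here. The KO group was 2 libraries from C57BL/6 mice at postnatal day 0 whose sample titles carry the words Hdac3, Emx1 and KO, and the WT group was 2 libraries from C57BL/6 mice of the same age labelled wild-type. All genes of the authors' cortex table entered, 12056 after removal of unusable rows, of which the 11988 averaging 1 FPKM or more were tested. FPKM is the number of fragments of a gene scaled by transcript length and by the fragments mapped in the library. The libraries are called KO 1, KO 2, WT 1 and WT 2 by the numbers in the labels.

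Hdac3 is a class I histone deacetylase that supplies the enzyme activity of NCoR-type corepressor complexes, which nuclear receptors and other DNA-binding factors recruit to silence genes. The authors' deposited sheet names a Cre recombinase under Emx1, a gene of dorsal telencephalic progenitors. Such a driver acts in those progenitors and in the excitatory neurons, astrocytes and part of the oligodendrocytes that they form. Interneurons born ventrally, microglia, vessels and meninges in the same tissue need not lose the gene. No source used here says whether the WT mice carried a floxed allele or Cre. Replicates were taken to be separate brains, since the design text lists 2 brains per group.

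Markers of dorsal cortex did not all move alike. Tbr1, a factor of deep layer neurons, was at like levels, with 32.9 and 36.5 FPKM in KO and 36.6 and 32.8 FPKM in WT. Emx2, a gene of dorsal progenitors, was lower, at 2.90 and 2.44 FPKM in KO and 5.88 and 5.495 FPKM in WT. Lhx2, described below, was higher. Ttr, Folr1 and Kl, which mark choroid plexus, had no row in the FPKM table. The intervals deposited with each FPKM implied a median of 582 to 711 fragments per gene. Pearson correlations of log2(FPKM + 1) between replicates across genes, which are not independent, were 0.9945 for KO and 0.9956 for WT. KO 1 stood apart in 4 Y-linked genes, Ddx3y, Eif2s3y, Kdm5d and Uty, each listed at 0 there and above 0 in the other 3 libraries. Ddx3y was at 0 FPKM in KO 1 and 8.13 FPKM in KO 2, against 10.8 and 10.9 FPKM in WT. Its part in the results was not tested beyond leaving KO 1 out. KO 2 stood apart in small and ribosomal RNAs: the ribosomal precursor Rn45s was at 3438 FPKM there and 830.4 FPKM in KO 1, against 289.3 and 265.8 FPKM in WT. Counts without either KO library are therefore given beside the main counts.

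Hdac3 mRNA measured 26.8 and 27.1 FPKM in KO and 48.1 and 46.1 FPKM in WT. Both KO values lay below both WT values, and the ratio of the means, KO over WT, was 0.572. The log2 fold change was −0.78 (SE 0.07, adjusted p = 0.000319). Here and below, fold changes are KO minus WT on the log2(FPKM + 1) scale, which understates changes of low genes. Adjusted p-values come from limma-trend, a moderated linear model, adjusted by Benjamini-Hochberg across the whole table, and genes under 0.05 passed. In bulk tissue, fewer cells of a type and less RNA per cell cannot be told apart. FPKM of the whole gene does not resolve the deleted exons.

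Of 5 partner genes of the complex 1 was higher and 0 lower, and 2 and 0 after rescaling. Tbl1x, a subunit that bridges the corepressor to chromatin, had 25.8 and 24.7 FPKM in KO and 21.4 and 20.02 FPKM in WT (log2 fold change 0.27, adjusted p = 0.0269), and missed the threshold without KO 1 (adjusted p = 0.141), KO 2 (0.108) or WT 2 (0.0827). Ncor1 and Gps2 did not pass, with log2 fold changes of −0.12 and −0.09. Among 10 other histone deacetylases, Hdac9, a class IIa enzyme expressed in neurons, fell to 3.14 and 3.06 FPKM in KO, against 5.20 and 6.40 FPKM in WT (log2 fold change −0.73, adjusted p = 0.00307). Hdac1 and Hdac2, also class I enzymes, did not pass: Hdac2 measured 108 and 104 FPKM in KO and 109 and 100 FPKM in WT.

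Across the transcriptome, 575 of 11988 genes were higher in KO (4.80%) and 2124 were lower (17.7%). The fold changes centred on a median of −0.10 (log2), and changes are read relative to that shift. After the libraries were rescaled by the median of ratios, 1131 genes (9.43%) rose and 934 (7.79%) fell. After quantile normalization 986 (8.22%) were higher and 944 (7.87%) lower. All 575 higher calls and 934 of the 2124 lower calls held in the deposited and the rescaled values. Most changes were small: 18 of the 575 higher and 26 of the 2124 lower genes differed by 1 or more on the log2 scale. Those 26 include 7 genes listed at 0 in both KO libraries, which are named below. Without KO 1 198 genes were higher and 796 lower, and without KO 2 227 and 619. Without WT 1 these counts were 613 and 1235, and without WT 2 349 and 1495. A set of 141 higher and 419 lower genes passed in the deposited, rescaled and quantile values and without any 1 of the 4 libraries. Every gene said below to have risen or fallen also passed after rescaling unless this is stated otherwise.

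**Figure D1:**
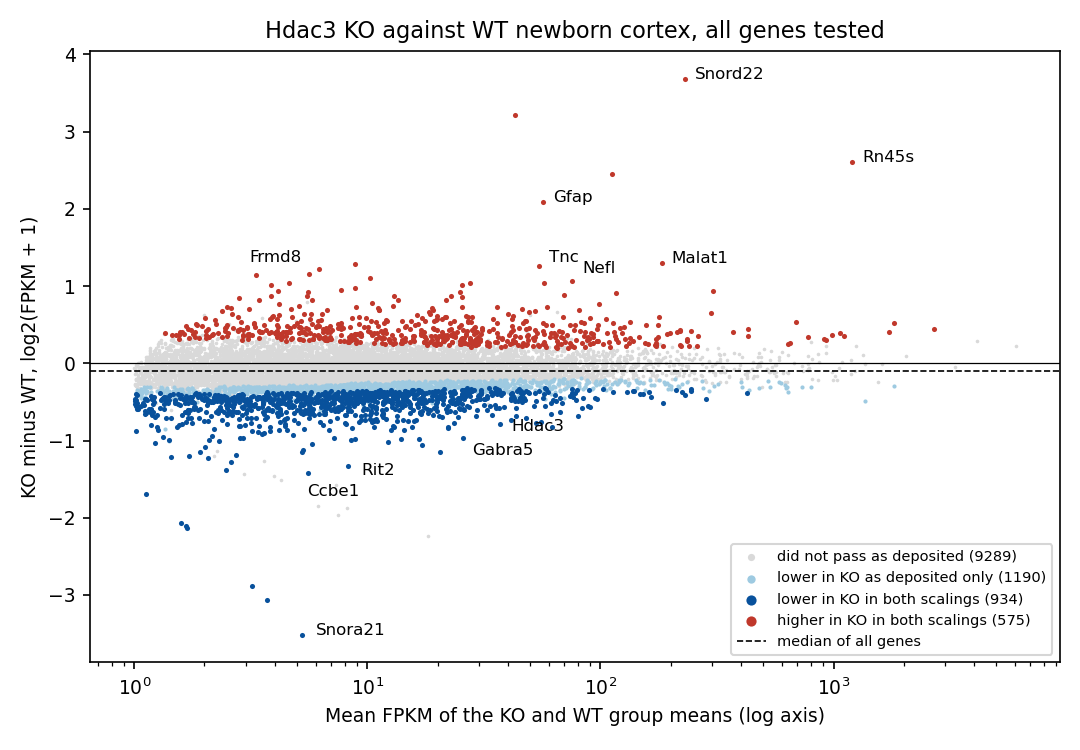
Each point is 1 of the 11988 genes tested, with the mean FPKM of the KO and WT groups on a log axis across and KO minus WT on the log2(FPKM + 1) scale up. Red points are the 575 genes higher in KO and dark blue the 934 lower in KO in both the deposited and the rescaled values; light blue points passed as lower in the deposited values only, and the dashed line is the median of all genes at −0.10.

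The authors' deposited DESeq2 table, made from the same libraries by counts, gave calls in the same directions. Of 11778 genes with an adjusted p there and a fit here, 483 were called higher in both, which is 84.7% of the higher calls here and 56.4% of the authors'. For lower genes, 736 were shared, 35.3% of the calls here and 99.2% of the authors'. No gene was called in opposite directions.

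The 15 largest rises without overlap included noncoding RNAs, glial genes and neurofilament genes as well as the following single genes. Frmd8, a FERM-domain protein that binds the iRhom proteins, measured 8.16 and 8.19 FPKM in KO and 3.07 and 3.15 FPKM in WT (log2 fold change 1.16, SE 0.09, adjusted p = 0.00019). Ngfr, the low-affinity neurotrophin receptor p75, measured 5.52 and 4.36 FPKM in KO and 1.87 and 1.51 FPKM in WT (log2 fold change 1.14, adjusted p = 0.00111). In both genes the KO values were more than 2-fold the WT values with no overlap. Cdkn1a, the cyclin-dependent kinase inhibitor p21, measured 12.8 and 16.1 FPKM in KO and 6.98 and 5.35 FPKM in WT (log2 fold change 1.11, adjusted p = 0.00154). Spp1, the secreted phosphoprotein osteopontin, had 49.3 and 26.5 FPKM in KO and 17.7 and 16.53 FPKM in WT, so the KO libraries differed in the size of its rise (log2 fold change 1.04, adjusted p = 0.0116). Of the genes tested, the small nucleolar RNA Snord22 had the largest positive fold change, but 825.2 FPKM in KO 2 and 60.9 FPKM in KO 1, against 21.8 and 12.5 FPKM in WT, and missed the threshold without WT 2 (adjusted p = 0.0811). At the other end, 7 genes were listed at 0 in both KO libraries: Snora21, Ogfod3, Txnrd2, B3gntl1, Ccdc167, Slc25a26 and Tgoln2. All 7 passed as lower in the deposited, rescaled and quantile values. One was the small nucleolar RNA Snora21, with 9.77 and 11.1 FPKM in WT, and no fold is given against a listed 0. The authors' deposited table, from counts of the same libraries, gave Snora21 a log2 fold change of −0.03 (SE 0.10) with no adjusted p, so the FPKM table and the counts differ for this gene. F730043M19Rik, a long noncoding RNA, fell to 0.658 and 0.634 FPKM in KO, against 2.50 and 3.11 FPKM in WT (log2 fold change −1.20, adjusted p = 0.000513).

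Most receptor genes for the main inhibitory transmitter were lower in KO cortex. GABA opens chloride channels assembled from several kinds of subunit, and this makeup changes as the cortex matures. Of 17 genes tested in the GABA and glycine receptor list, 13 were lower and 0 higher, and 7 were lower and 1 higher after rescaling. That 1 was Slc12a2 (rescaled log2 fold change 0.30), a chloride cotransporter that the list also holds and not a receptor. The list median was −0.42, beside −0.10 over all genes. Gabra5, an alpha subunit of receptors outside the synapse, measured 17.2 and 16.8 FPKM in KO and 35.3 and 33.2 FPKM in WT, a ratio of 0.497 with no overlap (log2 fold change −0.97, SE 0.07, adjusted p = 0.00015). Gabra3, an alpha subunit of the immature brain, measured 10.1 and 11.8 FPKM in KO and 19.04 and 21.2 FPKM in WT (log2 fold change −0.83, adjusted p = 0.00124). The beta subunit Gabrb1 fell to 1.95 and 2.21 FPKM in KO, against 4.34 and 4.18 FPKM in WT. The metabotropic receptor Gabbr1 did not pass, at 67.5 and 69.5 FPKM in KO and 74.2 and 74.7 FPKM in WT. Of this list 8, 9, 11 and 8 genes were lower without KO 1, KO 2, WT 1 and WT 2, and 0 were higher in each.

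Most glutamate receptor genes were lower as well. Of 21 tested, 13 were lower, 1 was higher and 7 did not pass, and 11 and 1 were lower and higher after rescaling, with a median of −0.40. Grik2, a kainate receptor subunit, measured 10.9 and 9.98 FPKM in KO and 18.1 and 17.9 FPKM in WT (log2 fold change −0.73, SE 0.08, adjusted p = 0.00111). Grin3a, an NMDA receptor subunit of young synapses that limits calcium entry, had 6.60 and 6.56 FPKM in KO and 10.3 and 11.7 FPKM in WT (log2 fold change −0.66, adjusted p = 0.00211). The metabotropic receptors Grm2 and Grm5 fell by 0.57 and 0.48. Grik3, another kainate subunit, was the 1 member called higher, with 26.4 and 26.8 FPKM in KO and 19.4 and 20.7 FPKM in WT (log2 fold change 0.39, adjusted p = 0.00693), and it missed the threshold without KO 2 (adjusted p = 0.0604). The AMPA subunit Gria1 did not pass (log2 fold change −0.16, adjusted p = 0.113). Lower calls numbered 9, 11, 11 and 12 without KO 1, KO 2, WT 1 and WT 2.

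Of the neuropeptide signalling genes, more were lower than did not pass. Of 20 tested, 11 were lower and 0 higher, 10 and 1 after rescaling, with a median of −0.48. The list also holds Rspo3, which belongs to Wnt signalling. Sstr1, a somatostatin receptor, measured 5.16 and 6.06 FPKM in KO and 11.7 and 12.3 FPKM in WT (log2 fold change −0.98, SE 0.09, adjusted p = 0.000721). Cck, the peptide cholecystokinin made by many cortical neurons, measured 32.8 and 33.4 FPKM in KO and 57.0 and 51.1 FPKM in WT (log2 fold change −0.69, adjusted p = 0.00111). Adcyap1, which encodes the peptide PACAP, had 1.32 and 0.9998 FPKM in KO and 3.02 and 3.29 FPKM in WT, whereas its receptor Adcyap1r1 did not pass (adjusted p = 0.643). Sst, the peptide of an interneuron class, did not pass, with 50.3 and 94.7 FPKM in KO and 87.5 and 77.8 FPKM in WT, and its KO libraries disagreed, so that it passed as lower without KO 2 (adjusted p = 0.0101). Lower calls were 10 or 11 without any 1 library. The authors' deposited gene ontology table for cortex listed neuropeptide signalling first, with 5 of 71 genes (odds ratio 12.1, p = 5.77e-05), but its adjusted p was 0.295 and 0 of its 858 terms passed 0.05 (153 had an unadjusted p under 0.05).

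**Figure D2:**
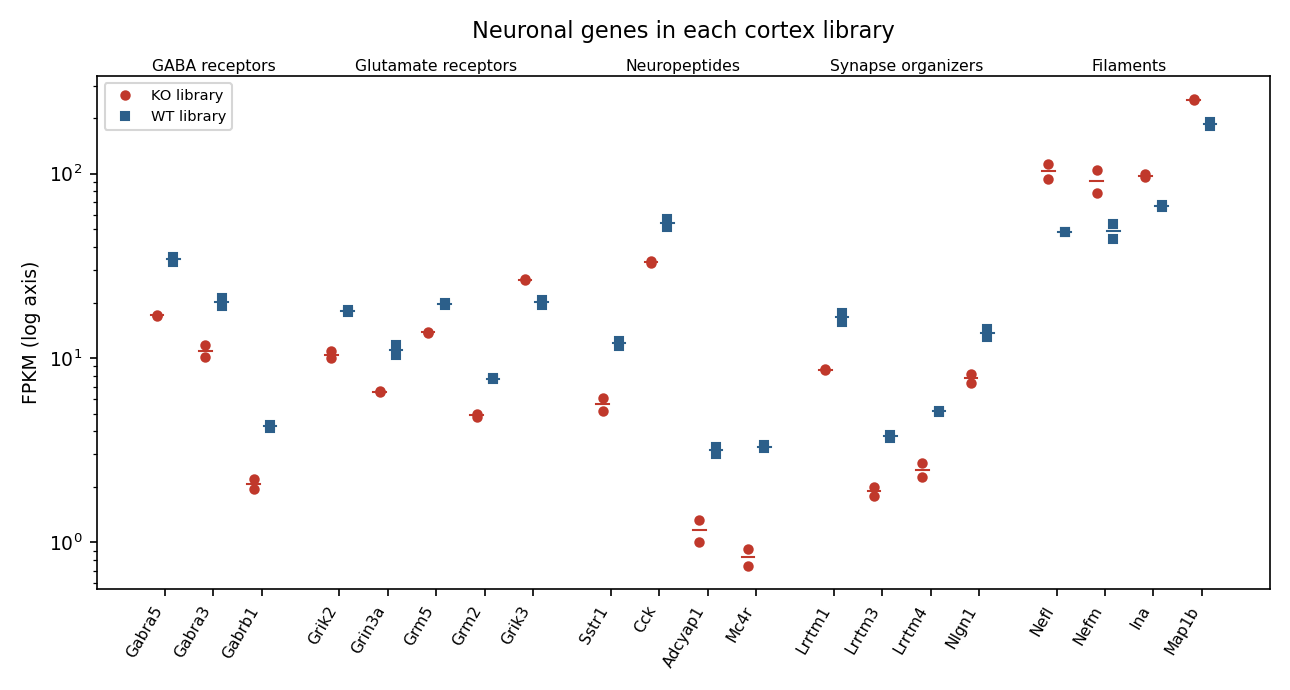
FPKM on a log axis of receptor, peptide, synapse organizer and cytoskeletal genes, with KO libraries as red circles left of WT libraries as blue squares and a bar at each group mean. The receptor, peptide and organizer genes other than Grik3 lie lower in both KO libraries than in either WT library, for example Gabra5 at 17.2 and 16.8 against 35.3 and 33.2 FPKM, and Grik3 and the 4 cytoskeletal genes lie higher.

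Ion channel genes moved in both directions. Over all genes 17.7% were lower and 4.80% higher, and 7.79% and 9.43% after rescaling. The potassium list had a larger share lower than that, and the sodium and calcium list as deposited was near it. Of 43 potassium and HCN channel genes, 17 were lower and 3 higher (14 and 4 after rescaling, median −0.20). Kcnk9, a two-pore leak channel, measured 1.43 and 1.69 FPKM in KO and 3.28 and 3.58 FPKM in WT (log2 fold change −0.79, adjusted p = 0.00183). Kcnip4 and Kcnd2, an accessory and a pore subunit of the same A-type current, fell by 0.74 and 0.61 on the log2 scale. Kcnh3, an ether-a-go-go type channel of the forebrain, instead rose, with 14.2 and 14.03 FPKM in KO and 8.22 and 8.53 FPKM in WT (log2 fold change 0.69, SE 0.08, adjusted p = 0.00119). Among 24 sodium and calcium channel genes, 5 were lower and 1 higher, and 3 and 3 after rescaling. Lower calls there were 2, 2, 4 and 3 without KO 1, KO 2, WT 1 and WT 2. Scn3a, the sodium channel of the immature brain, had 7.65 and 7.87 FPKM in KO and 12.1 and 12.3 FPKM in WT (log2 fold change −0.59, adjusted p = 0.00203). Without KO 1, KO 2, WT 1 and WT 2 the potassium list had 11, 12, 14 and 13 lower calls.

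Adhesion molecules that match neurons to each other were lower more often than all genes were (17.7%, and 7.79% after rescaling). Of 31 cadherins and protocadherins, 17 were lower and 1 higher, 12 and 3 after rescaling, with a median of −0.35. Pcdh10, a protocadherin of axon growth, measured 10.7 and 11.1 FPKM in KO and 20.7 and 17.2 FPKM in WT (log2 fold change −0.74, adjusted p = 0.00183). Pcdh20 had 1.19 and 0.906 FPKM in KO and 2.45 and 2.54 FPKM in WT, and Pcdh17 and Cdh10 fell by 0.62 and 0.59 on the log2 scale. Cdh2, the classical N-cadherin, did not pass, with 63.4 and 64.7 FPKM in KO and 58.8 and 57.8 FPKM in WT, although it was called higher after rescaling. Lower calls numbered 11, 9, 12 and 9 without KO 1, KO 2, WT 1 and WT 2. In the axon guidance list 11 of 37 genes were lower and 2 higher, 10 and 4 after rescaling. Sema3c, a secreted semaphorin that attracts cortical axons, measured 9.10 and 6.52 FPKM in KO and 16.2 and 17.1 FPKM in WT (log2 fold change −1.02, SE 0.13, adjusted p = 0.00176). Unc5d, a netrin family receptor of migrating upper layer neurons, had 2.07 and 2.33 FPKM in KO and 5.05 and 4.94 FPKM in WT (log2 fold change −0.91, adjusted p = 0.00111). Sema7a, a membrane-anchored semaphorin that promotes axon growth, rose instead, with 60.1 and 53.9 FPKM in KO and 35.8 and 33.5 FPKM in WT (log2 fold change 0.70, adjusted p = 0.00111). Lower calls in this list were 6, 5, 10 and 8 without KO 1, KO 2, WT 1 and WT 2.

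At the synapse itself, organizers fell while several abundant synaptic proteins rose or did not pass. Of 28 postsynaptic genes, 9 were lower and 3 higher, 7 and 4 after rescaling. The lower genes with the smallest adjusted p were adhesion proteins that bind neurexins across the cleft. Lrrtm1 measured 8.72 and 8.59 FPKM in KO and 17.6 and 15.6 FPKM in WT (log2 fold change −0.86, SE 0.08, adjusted p = 0.000764). Lrrtm4, Nlgn1 and Lrrtm3 fell by 0.83, 0.74 and 0.72, and in each the KO and WT values did not overlap. Camk2b, a subunit of the calcium-dependent kinase of synaptic plasticity, rose to 203 and 212 FPKM in KO, against 150 and 144 FPKM in WT (log2 fold change 0.50, adjusted p = 0.00189). Nptx1, a pentraxin that clusters AMPA receptors, rose by 0.64, and the scaffold Dlg4 did not pass (log2 fold change 0.04). Of 36 synaptic vesicle and SNARE genes, 10 were lower and 4 higher, and 5 and 5 after rescaling. The vesicle proteins Syt4 and Sv2b went opposite ways, Syt4 lower by a log2 difference of −0.69 (adjusted p = 0.00157) and Sv2b higher, at 24.8 and 25.6 FPKM in KO and 15.98 and 17.1 FPKM in WT. Slc17a6, a vesicular glutamate transporter of young neurons, fell by 0.66 (adjusted p = 0.00316). Snap25 and Syp did not pass, with log2 fold changes of 0.07 and −0.05. Lower calls were 5, 5, 7 and 7 in the vesicle list without KO 1, KO 2, WT 1 and WT 2, and 6, 6, 8 and 10 in the postsynaptic list.

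Cytoskeletal genes of axons were more often higher than lower. Of 26 neurofilament, tubulin and microtubule genes, 9 were higher and 2 lower, 12 and 1 after rescaling, with a median of 0.12. Ina, the neurofilament alpha-internexin, measured 99.3 and 96.0 FPKM in KO and 67.8 and 66.0 FPKM in WT (log2 fold change 0.54, SE 0.06, adjusted p = 0.00134). Map1b, a microtubule-associated protein of growing axons, had 250.5 and 254 FPKM in KO and 182 and 192 FPKM in WT (log2 fold change 0.43, adjusted p = 0.00305), and the neurofilament Nefl rose by 1.07. Tubb4b fell instead, with 126 and 128 FPKM in KO and 166 and 169 FPKM in WT. Tubulin genes are near-identical, so the split of reads among them is uncertain. Tuba1a, the gene with the most FPKM in the table, did not pass, at 6521 and 6522 FPKM in KO and 5568 and 5579 FPKM in WT (log2 fold change 0.23, adjusted p = 0.0893). Higher calls in this list were 6, 6, 8 and 10 without KO 1, KO 2, WT 1 and WT 2.

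**Figure D3:**
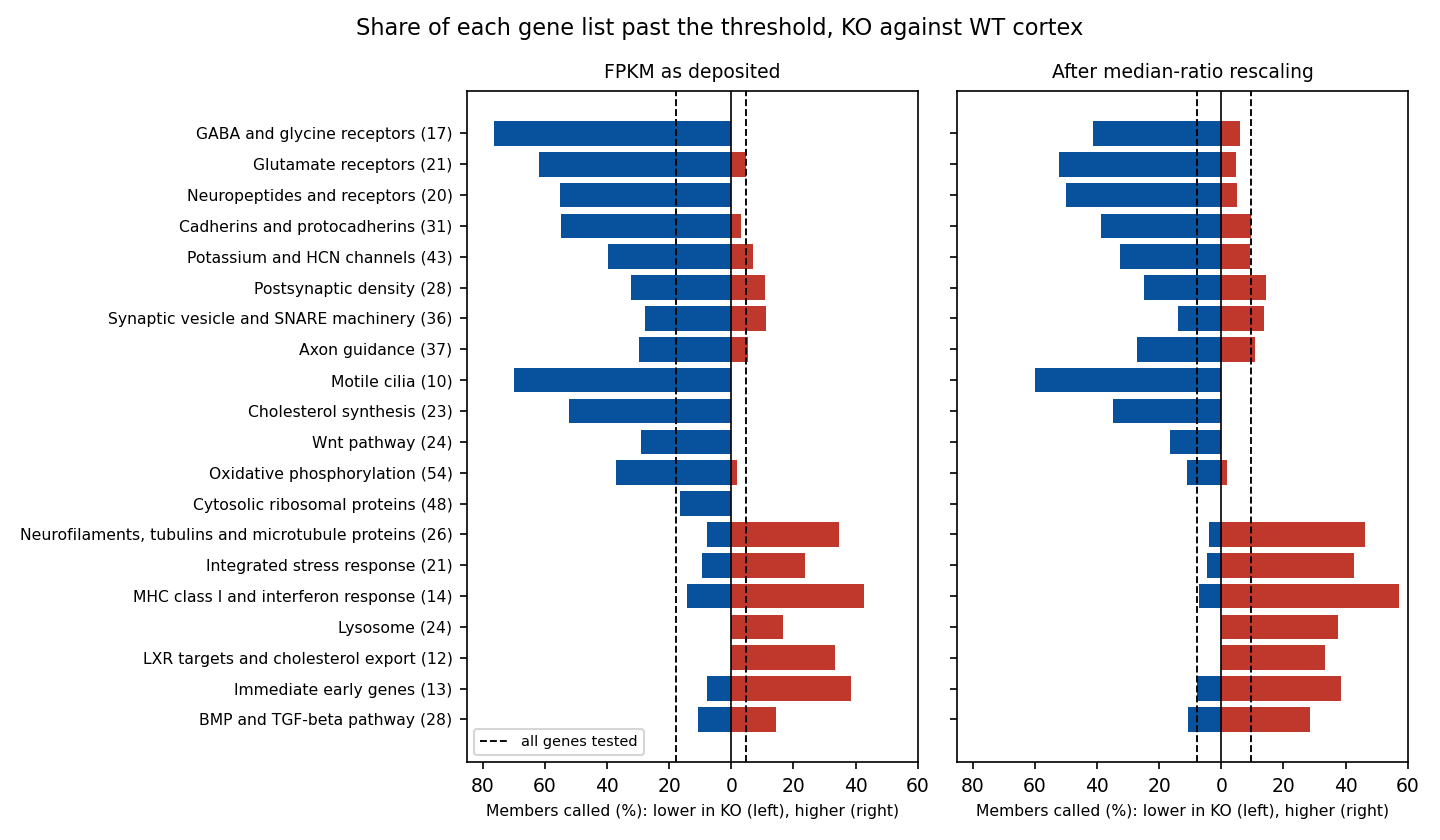
Bars give the percentage of each list's tested members (number in brackets) called lower in KO, left of 0, and higher in KO, right of 0, in the deposited values (left panel) and after median-ratio rescaling (right panel). Dashed lines mark the shares over all genes tested, 17.7% lower and 4.80% higher as deposited and 7.79% lower and 9.43% higher after rescaling.

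Markers of neuron classes that arise outside the dorsal cortex were measured in the same libraries, and their part in the neuronal results was not tested. Over all genes 17.7% were lower and 4.80% higher, and 7.79% and 9.43% after rescaling. Of 22 interneuron genes 3 were lower and 0 higher, and 2 were lower and 2 higher after rescaling. Their summed level was 351 and 389 FPKM in KO and 436 and 392.1 FPKM in WT. Gad1, the GABA-synthesizing enzyme, did not pass (18.2 and 20.6 FPKM in KO, 22.4 and 23.4 FPKM in WT). Lower calls were 0, 1, 2 and 2 without KO 1, KO 2, WT 1 and WT 2. Of 10 striatal genes only the dopamine receptor Drd1 was lower, at 1.59 and 1.46 FPKM in KO and 3.46 and 2.96 FPKM in WT. None was higher as deposited, and 1 was lower and 1 higher after rescaling. The striatal sum differed between the WT libraries themselves, with 122 and 106 FPKM in KO, 142 FPKM in WT 1 and 90.6 FPKM in WT 2. Without WT 1 4 striatal genes were higher, and without WT 2 3 were lower. Of 6 Cajal-Retzius genes 0 passed in limma-trend (0 at an unadjusted p under 0.05; Reln had a log2 fold change of −0.17), and the authors' deposited table also called 0 of its 10.

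Some glial genes were higher in the same libraries, and their part in the neuronal results was not tested. Gfap, the intermediate filament of astrocytes, had 104 and 81.3 FPKM in KO and 20.4 and 21.4 FPKM in WT (log2 fold change 2.09). Of 18 astrocyte genes 5 were higher and 2 lower, 6 and 0 after rescaling, and their summed level was 1569 and 1428 FPKM in KO and 1059 and 1140 FPKM in WT. Much of that sum came from Apoe and Cst3. Apoe had 418 and 380 FPKM in KO and 199 and 218 FPKM in WT. Cst3 had 426 and 422 FPKM in KO and 314 and 326 FPKM in WT. The 2 lower genes, Aldh1l1 and Sparcl1, were called in the deposited values but not after rescaling. The glutamate transporter Slc1a3, a defining astrocyte marker, did not pass, with 61.3 and 54.3 FPKM in KO and 55.8 and 56.8 FPKM in WT. Of 11 oligodendrocyte lineage genes 6 were higher and 0 lower, 7 and 0 after rescaling, with sums of 117 and 103 FPKM in KO and 89.2 and 76.3 FPKM in WT. Gpr17, a receptor of maturing precursors, had 11.7 and 9.32 FPKM in KO and 4.77 and 5.08 FPKM in WT (log2 fold change 0.95, adjusted p = 0.00134), whereas Olig2, which defines the lineage, did not pass. Of 20 radial glia genes 7 were higher and 3 lower, 9 and 3 after rescaling. Higher calls without KO 1, KO 2, WT 1 and WT 2 were 3, 4, 5 and 7 for astrocytes, 4, 4, 7 and 4 for the oligodendrocyte lineage and 5, 6, 6 and 7 for radial glia.

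Layer genes were called in both directions within each layer. Over all genes 4.80% were higher and 17.7% lower, and 9.43% and 7.79% after rescaling. The share of deep layer genes called lower was near that of all genes. Of 20 deep layer and subplate genes, 3 were higher and 3 lower, 4 and 2 after rescaling, and 2, 1, 2 and 3 were lower without KO 1, KO 2, WT 1 and WT 2. Nr4a2, a nuclear receptor of subplate and claustrum neurons, measured 34.4 and 31.9 FPKM in KO and 17.7 and 17.9 FPKM in WT (log2 fold change 0.86, SE 0.07, adjusted p = 0.000312). Nxph4, a neurexin ligand of the same cells, had 6.06 and 7.002 FPKM in KO and 3.005 and 2.34 FPKM in WT (log2 fold change 1.04, adjusted p = 0.00119). Both KO values exceeded both WT values in each. Crym, a thyroid hormone binding protein of deep layer neurons, fell to 48.4 and 40.8 FPKM in KO, against 76.6 and 82.0 FPKM in WT (log2 fold change −0.82, adjusted p = 0.00111). Of 15 upper layer genes, 4 were lower and 2 higher, 4 and 3 after rescaling, and 4, 2, 3 and 4 were lower without KO 1, KO 2, WT 1 and WT 2. Bhlhe22, a repressor of layer II to V neurons, measured 37.5 and 35.0 FPKM in KO and 60.3 and 58.8 FPKM in WT (log2 fold change −0.70, adjusted p = 0.000675). Lhx2, a LIM homeodomain factor of cortical progenitors and upper layer neurons, had 51.8 and 48.5 FPKM in KO and 34.9 and 31.8 FPKM in WT (log2 fold change 0.58, adjusted p = 0.00185).

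The G2 and M list and the S phase list had close medians, 0.04 and 0.07 as deposited and 0.12 and 0.17 after rescaling. Over all genes the medians were −0.10 and −0.0015. Over all genes 4.80% were higher, and 9.43% after rescaling, where 4 of the 20 S phase genes were higher. Among 21 mitotic and G2 genes 0 passed in limma-trend (1 at an unadjusted p under 0.05), and 1 was higher after rescaling and 1 without KO 2. Of 20 S phase genes 3 were higher, none of them without KO 1 or WT 2, and 1 without KO 2. Top2a, a topoisomerase of dividing cells, had 12.1 and 9.35 FPKM in KO and 8.66 and 7.67 FPKM in WT (adjusted p = 0.0625), and was called higher after rescaling and without KO 2 (adjusted p = 0.0378). Of 18 p53 target and cell cycle inhibitor genes 2 were higher, the p21 gene Cdkn1a described above and Plk2, a kinase induced by activity and damage. Plk2 measured 133 and 116 FPKM in KO and 77.6 and 68.2 FPKM in WT (log2 fold change 0.76, adjusted p = 0.0013). Bax, a p53 target of apoptosis, did not pass, at 47.4 and 52.4 FPKM in KO and 61.5 and 47.8 FPKM in WT. Of 13 intermediate progenitor genes, 3 were lower and 2 higher, 2 and 4 after rescaling, and higher calls were 0 without KO 1, KO 2 or WT 2. Elavl4, an RNA-binding protein of new neurons, fell by 0.61 (adjusted p = 0.00166), and Neurod1 did not pass (log2 fold change −0.02).

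Secreted signals of the cortex differed by pathway. Wnt proteins pattern the dorsal telencephalon and R-spondins amplify their signal. Of 24 Wnt pathway genes, 7 were lower and 0 higher, and 4 and 0 after rescaling. Rspo2 measured 2.83 and 3.01 FPKM in KO and 5.82 and 6.48 FPKM in WT (log2 fold change −0.87, SE 0.09, adjusted p = 0.00118). Rspo3 had 1.22 and 1.36 FPKM in KO and 2.995 and 2.72 FPKM in WT (log2 fold change −0.75). The ligand Wnt7b, which acts on progenitors and vessels, fell to 17.3 and 19.4 FPKM in KO, against 34.3 and 26.5 FPKM in WT (log2 fold change −0.69, adjusted p = 0.00487). The receptor Fzd3 and the coreceptor Lrp6 did not pass. Lower calls were 4, 4, 4 and 7 without KO 1, KO 2, WT 1 and WT 2.

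BMP, Notch and FGF genes rose more often than they fell after rescaling. Of 28 BMP and TGF-beta genes, 4 were higher and 3 lower, 8 and 3 after rescaling. Id1, a direct BMP target that blocks neurogenic transcription factors, measured 29.5 and 30.1 FPKM in KO and 16.1 and 15.5 FPKM in WT (log2 fold change 0.88, SE 0.07, adjusted p = 0.000278). The related Id2 did not pass, with 156 and 148 FPKM in KO and 172 and 148 FPKM in WT. Of 22 Notch pathway genes 3 were higher and 0 lower, 6 and 0 after rescaling, and the receptor Notch1 had 8.22 and 7.76 FPKM in KO and 4.75 and 4.76 FPKM in WT (log2 fold change 0.64, adjusted p = 0.00211). Of 19 FGF and ERK feedback genes 3 were lower and 2 higher, 2 and 4 after rescaling, and without KO 1, KO 2, WT 1 and WT 2 the lower calls were 2, 1, 3 and 2 and the higher calls 1, 1, 2 and 1. The receptor Fgfr1 rose to 27.4 and 20.1 FPKM in KO, against 14.6 and 13.2 FPKM in WT (log2 fold change 0.71, adjusted p = 0.00671). Fgf13, an intracellular family member that binds sodium channels and microtubules, fell to 41.7 and 36.3 FPKM in KO, against 64.1 and 70.5 FPKM in WT (log2 fold change −0.77, adjusted p = 0.00111). Higher calls were 3, 2, 4 and 3 in the BMP list and 1, 1, 3 and 1 in the Notch list without KO 1, KO 2, WT 1 and WT 2.

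Most tested genes of motile cilia, the beating cilia of ependyma and choroid plexus, were lower. Foxj1 and RFX factors switch on these genes, and RFX factors bind the X-box, whose first arm is commonly GTTGCC. Of 10 tested, 7 were lower and 0 higher, 6 and 0 after rescaling, with a median of −0.59. The authors' deposited table, which covers more of them, called 7 of 26 lower and 0 higher. Rsph9, a radial spoke subunit, measured 14.6 and 14.2 FPKM in KO and 20.8 and 24.5 FPKM in WT (log2 fold change −0.61, SE 0.09, adjusted p = 0.00285). Dynlrb2, a dynein light chain, measured 1.60 and 0.943 FPKM in KO and 5.06 and 3.31 FPKM in WT (log2 fold change −1.18, adjusted p = 0.0033). Ccdc39, which sets the spacing of dynein arms, had 3.92 and 3.73 FPKM in KO and 7.25 and 5.58 FPKM in WT (log2 fold change −0.61, adjusted p = 0.00885), and missed the threshold without KO 2 (adjusted p = 0.0578). The values of the list did not overlap between groups for these genes, although WT 1 exceeded WT 2 in Dynlrb2 and Ccdc39. Foxj1, named after its values were seen, had 3.49 and 2.26 FPKM in KO and 6.57 and 4.56 FPKM in WT (log2 fold change −0.76, adjusted p = 0.0169), and missed the threshold without KO 2 (adjusted p = 0.111) or WT 1 (0.0793). Rfx3 did not pass, with 9.29 and 7.64 FPKM in KO and 8.17 and 10.04 FPKM in WT. Lower calls were 7, 3, 4 and 6 without KO 1, KO 2, WT 1 and WT 2. Of 4 choroid plexus genes with values, the water channel gene Aqp1 was higher and Sulf1 was lower as deposited. After rescaling 3 were higher, Aqp1, Enpp2 and Slc13a4, and 0 were lower. Aqp1 missed the threshold without any 1 library, and Sulf1 without KO 1 (adjusted p = 0.106) or WT 1 (0.0819).

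The upstream sequences of 2 of these genes are shown because they carry the X-box arm, in capitals on either strand, within 100 bases of the RefSeq start. They are RefSeq sequences of build GRCm38.p6, whereas the expression files use mm9, at chr8:116504915-116505014 on the plus strand for Dynlrb2 and chr11:72361883-72361982 on the minus strand for Tekt1, each written 5′ to 3′ toward the start.
Dynlrb2: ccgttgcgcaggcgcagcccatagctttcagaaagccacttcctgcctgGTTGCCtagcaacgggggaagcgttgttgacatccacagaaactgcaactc
Tekt1: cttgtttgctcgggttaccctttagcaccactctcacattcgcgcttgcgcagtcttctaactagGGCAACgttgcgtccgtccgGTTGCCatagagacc
GTTGCC, searched on both strands of the 250 bases before the start, occurred in 4 of the 8 tested list members matched to a promoter, and in 11.8% of 27025 genes. Tekt1, a filament protein of cilia, had 1.93 and 1.27 FPKM in KO and 2.58 and 2.34 FPKM in WT and was called lower in the deposited values only (adjusted p = 0.0451), and not without KO 2 (adjusted p = 0.262), WT 1 (0.153) or WT 2 (0.0825). A match is a description of letters and shows no binding.

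Lipid genes separated by pathway. Neurons and glia of the newborn brain make their own cholesterol under the control of SREBP factors, and liver X receptors, which recruit NCoR with Hdac3, drive its export. Of 23 genes of cholesterol synthesis and uptake, 12 were lower and 0 higher, and 8 and 0 after rescaling. Idi1, which isomerizes isoprenoid units, measured 20.7 and 18.6 FPKM in KO and 29.2 and 30.3 FPKM in WT (log2 fold change −0.58, SE 0.08, adjusted p = 0.00203), but the authors' deposited table gave it −0.06 (adjusted p = 0.92). Msmo1, Mvd and Acat2, which act at successive stages of the pathway, fell by 0.53, 0.48 and 0.44. Hmgcs1, an early enzyme of the pathway, did not pass, with 244 and 257 FPKM in KO and 236 and 248 FPKM in WT. Lower calls were 6, 7, 8 and 11 without KO 1, KO 2, WT 1 and WT 2.

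The upstream sequence of Hmgcs1 is shown because it alone among the 17 tested members of this list matched to a promoter holds the sterol regulatory element TCACNCCAC on either strand of the 250 bases searched. It lies at chr13:119690201-119690350 on the plus strand of GRCm38.p6, with the element in capitals.
Hmgcs1: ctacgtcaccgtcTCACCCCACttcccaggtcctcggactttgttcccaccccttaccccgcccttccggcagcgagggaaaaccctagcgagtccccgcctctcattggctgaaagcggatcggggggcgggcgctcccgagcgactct
Over all 27025 genes 1.22% hold it, and the element was in 0 of the 9 matched genes called lower.

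Some genes of sterol export and fatty acid synthesis were higher. Of 12 liver X receptor targets and export genes 4 were higher and 0 lower, also after rescaling, and 1, 2, 4 and 2 were higher without KO 1, KO 2, WT 1 and WT 2. Abca1, the transporter that loads cholesterol onto lipoproteins, measured 11.6 and 9.51 FPKM in KO and 6.32 and 7.02 FPKM in WT (log2 fold change 0.59, adjusted p = 0.0069), and without KO 1 its adjusted p was 0.0512. Scd2, the stearoyl-CoA desaturase of the brain, measured 218 and 212 FPKM in KO and 147 and 137 FPKM in WT (log2 fold change 0.59, SE 0.07, adjusted p = 0.00119). Srebf1, the SREBP factor of fatty acid synthesis, rose to 8.61 and 7.17 FPKM in KO, against 5.55 and 5.42 FPKM in WT (log2 fold change 0.45, adjusted p = 0.0151), and missed the threshold without KO 1 (adjusted p = 0.0964) or WT 2 (0.0511). Other genes of the 16 in this list fell. Elovl2, which elongates polyunsaturated fatty acids, had 8.43 and 7.59 FPKM in KO and 13.6 and 13.9 FPKM in WT (log2 fold change −0.71, adjusted p = 0.00137), and the acyl-CoA synthetase Acsl3 fell by 0.52. In all 5 were higher and 5 lower, 6 and 4 after rescaling, and without KO 1, KO 2, WT 1 and WT 2 the higher calls were 1, 3, 6 and 2 and the lower calls 3, 2, 5 and 4. Of 24 fatty acid oxidation genes 1 was lower, and after rescaling 2 were higher and 0 lower.

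**Figure D4:**
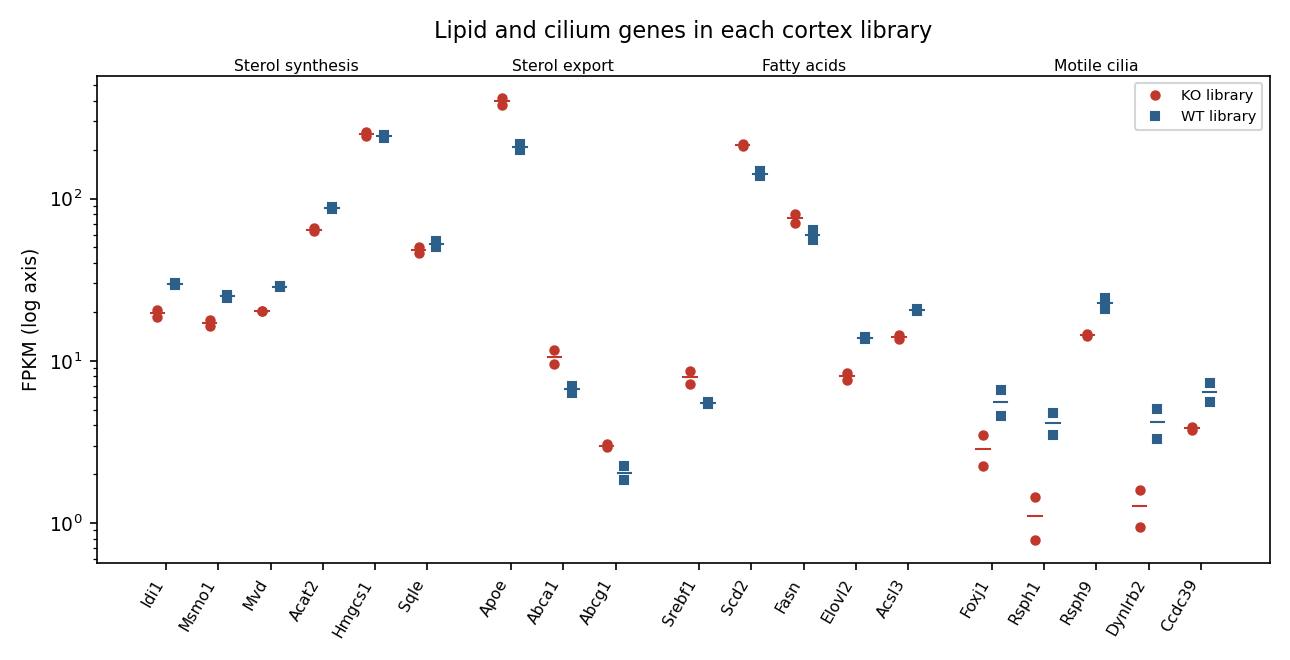
FPKM on a log axis of lipid and motile cilium genes, with KO libraries as red circles left of WT libraries as blue squares and a bar at each group mean. Idi1 to Acat2, Elovl2, Acsl3 and the 5 cilium genes lie lower in both KO libraries, Apoe, Abca1, Abcg1, Srebf1, Scd2 and Fasn lie higher, and Hmgcs1, at 244 and 257 against 236 and 248 FPKM, overlaps.

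Ligand pathways that use Hdac3 corepressors showed changes of single genes. In the thyroid hormone list 3 of 12 genes were lower and 2 higher, 3 and 4 after rescaling, and higher calls were 1 without either KO library. Flywch2, a zinc finger gene, rose to 13.4 and 15.97 FPKM in KO, against 9.88 and 9.50 FPKM in WT (log2 fold change 0.55, adjusted p = 0.00574). In the retinoic acid list 4 of 15 were higher and 1 lower, 6 and 1 after rescaling, and higher calls were 1, 2, 5 and 1 without KO 1, KO 2, WT 1 and WT 2. Cyp26b1, which degrades retinoic acid, had 3.17 and 2.72 FPKM in KO and 5.80 and 5.96 FPKM in WT (log2 fold change −0.81, SE 0.10, adjusted p = 0.00154). Stra6, a retinol uptake receptor, had 3.63 and 3.54 FPKM in KO and 2.30 and 2.01 FPKM in WT (log2 fold change 0.54, adjusted p = 0.00666). Of 17 circadian clock genes, whose repressor Nr1d1 acts through Hdac3, 5 were higher and 5 lower, and 5 and 1 after rescaling. In the deposited values these calls did not hold without KO 1 or without KO 2, whereas after rescaling some clock genes still passed. Arntl, the clock gene that Nr1d1 represses, had 9.80 and 10.04 FPKM in KO and 9.96 and 10.2 FPKM in WT.

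Stress and activity genes rose in part. Of 21 integrated stress response genes 5 were higher and 2 lower, 9 and 1 after rescaling. Atf4, its central transcription factor, measured 88.1 and 86.1 FPKM in KO and 62.9 and 60.05 FPKM in WT (log2 fold change 0.50, SE 0.06, adjusted p = 0.00183). Atf5, a related factor, measured 17.98 and 14.99 FPKM in KO and 9.78 and 8.98 FPKM in WT (log2 fold change 0.75, adjusted p = 0.00203). The amino acid synthesis enzyme Psat1, another gene of this response, fell by 0.36 (adjusted p = 0.0141), and missed the threshold without KO 2 (adjusted p = 0.121). Higher calls were 3, 2, 3 and 6 without KO 1, KO 2, WT 1 and WT 2. Chaperones of the endoplasmic reticulum did not rise: 5 of 17 were lower, and 1 after rescaling, and 0, 1, 2 and 3 were lower without KO 1, KO 2, WT 1 and WT 2. Of 13 immediate early genes 5 were higher and 1 lower, also after rescaling. Ier2 measured 7.73 and 7.49 FPKM in KO and 3.87 and 3.20 FPKM in WT (log2 fold change 0.93, adjusted p = 0.00111). Egr3 went down instead, with 2.02 and 1.68 FPKM in KO and 2.96 and 2.78 FPKM in WT (adjusted p = 0.0164), and missed the threshold without KO 2 (adjusted p = 0.11) or WT 1 (0.0641). Higher calls of early genes were 4, 2, 6 and 3 without KO 1, KO 2, WT 1 and WT 2.

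Some antigen presentation and lysosomal genes were higher, while most members of both lists did not pass as deposited. Of 14 MHC class I and interferon genes 6 were higher and 2 lower, 8 and 1 after rescaling. Bst2, an interferon-induced membrane protein, had 7.47 and 5.84 FPKM in KO and 3.51 and 3.60 FPKM in WT (log2 fold change 0.74, SE 0.11, adjusted p = 0.0035). H2-D1, a class I heavy chain whose reads can be split with near-identical genes, had 16.98 and 16.9 FPKM in KO and 11.8 and 12.1 FPKM in WT (log2 fold change 0.47, adjusted p = 0.00359). B2m, its light chain, did not pass (39.3 and 33.7 FPKM in KO, 29.9 and 31.4 FPKM in WT), although it was called higher after rescaling. Of 24 lysosomal genes 4 were higher and 0 lower, 9 and 0 after rescaling. Cd63, a membrane protein of lysosomes and exosomes, had 57.0 and 53.2 FPKM in KO and 38.5 and 37.3 FPKM in WT (log2 fold change 0.53, adjusted p = 0.00183). Higher calls were 4, 3, 4 and 6 in the class I list and 1, 2, 4 and 4 in the lysosome list without KO 1, KO 2, WT 1 and WT 2. Microglia share these genes: of 17 microglial genes 8 were higher and 1 lower, and their sum was 146 and 128 FPKM in KO and 110 and 103 FPKM in WT, while the defining receptor Csf1r was at 7.16 and 6.96 FPKM in KO and 6.99 and 7.30 FPKM in WT. Higher microglial calls were 2, 4, 6 and 5 without KO 1, KO 2, WT 1 and WT 2. The part of microglia in the result was not tested.

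Genes of the ribosome and of mitochondrial respiration moved with the scale. Of 54 oxidative phosphorylation genes 20 were lower and 1 higher, but 6 and 1 after rescaling, with medians of −0.20 and −0.09. Ndufa1, a subunit of complex I, measured 80.2 and 79.2 FPKM in KO and 112 and 106 FPKM in WT (log2 fold change −0.45, adjusted p = 0.00258). Atp5e, a subunit of ATP synthase, had 231 and 246 FPKM in KO and 339 and 321 FPKM in WT, whereas Atp5b did not pass. Lower calls were 2, 3, 15 and 22 without KO 1, KO 2, WT 1 and WT 2. Of 48 cytosolic ribosomal protein genes 8 were lower in the deposited values and 0 after rescaling in limma-trend (10 at an unadjusted p under 0.05), and 1, 0, 4 and 14 were lower without KO 1, KO 2, WT 1 and WT 2. Many of these genes have near-identical copies. In the glycolysis and hypoxia list 7 of 22 genes were lower and 1 higher, 2 and 2 after rescaling, and lower calls were 1, 2, 3 and 4 without KO 1, KO 2, WT 1 and WT 2. Ldha and Gapdh did not pass (adjusted p = 0.799 and 0.977).

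Genes silent or low in WT have no row in the FPKM table, so the authors' deposited DESeq2 table was consulted for genes without one. It held 7288 genes without a row there, 2550 of them with an adjusted p. Of those 2550 it called 59 higher (2.31%) and 43 lower (1.69%). Not all of these were low: the mean normalized count was 2967 for Nol3 and 1741 for Fam69a. Why such genes have no row was not tested. The authors' DESeq2 table gives no value per library. In the authors' deposited table the largest positive log2 fold changes were 1.498 for Myoc, a secreted protein of the eye and meninges, 1.46 for the fibrillar collagen Col11a2 and 1.40 for the clustered protocadherin Pcdhb11. Next in the authors' deposited table came the complement gene C4b (1.32), whose reads can be shared with a near-identical copy, Casq1 (1.26), a calcium-binding protein of muscle, and Gpnmb (1.14), a glycoprotein of reactive phagocytes. The authors' deposited table placed at the other end Capn11, a calpain protease, at −1.77 (adjusted p = 6.97e-14), and the orexin receptor Hcrtr2 at −1.27 (adjusted p = 1.99e-07). It also had −0.81 for Trhr, the receptor of thyrotropin-releasing hormone, and −0.78 for Aldh1a3, an enzyme that makes retinoic acid, both in the authors' deposited table.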

How the data were processed

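RNA sequencing of poly(A)-primed, stranded libraries was done by the submitters; 2 KO and 2 WT cortex libraries were used here. The authors used, per the submitters' processing notes, Cufflinks, DESeq2, featureCounts, Bowtie, STAR and Trim Galore on build mm9. No source used here gives versions or says whether strand was used, so overlapping genes on opposite strands are uncertain. The authors deposited FPKM values from 1 Cufflinks run per library, with interval bounds, and ratio (fold) columns that were not used. Some of those columns set a KO library over the WT library of the same number. The deposited DESeq2 table holds a signal column (mean normalized count), log2 fold changes with standard errors, and p-values by the authors. A deposited term table holds p-values and odds ratios.

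No WT value in the FPKM table was below 1.00024, while 365 rows had a KO value below 1, so the table was restricted on WT and genes that came on only in KO are outside the fit. Of 12106 rows, 21 with a date for a symbol and 29 repeats were removed. Total counts per library were not used. Genes averaging 1 FPKM or more were fitted as log2(FPKM + 1) with limma-trend (limma 3.58.1, R 4.3.3; two-sided; Benjamini-Hochberg over all genes), checked on simulated data. Tables were handled in Python 3.11.15 with pandas 2.3.3 and drawn with matplotlib 3.10.9. Alternatives were another pseudocount, other filters, median-ratio and quantile scaling, each library left out (the lone library of a group is then assumed to vary like the others), a replicate block and no trend. Older symbols were matched through RefSeq names.

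The members and the 57 gene lists were chosen with earlier results of these data known. Lists are described by counts and medians, without a test of the list. Named genes are Hdac3, the 15 largest changes each way without overlap, up to 4 called members per list and direction and up to 3 of the most abundant that did not pass, up to 10 authors' genes each way outside the FPKM table, genes listed at 0 in a group and the 10 most abundant genes. Genes named on other grounds are marked as such. Results for some named genes are not reported here.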

Additional observations from a re-analysis of the deposited data

How the results depend on the processing

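Both scaling and single libraries moved the counts. Genes higher in KO numbered 1131 after median-ratio rescaling and 986 after quantile normalization, and genes lower in KO 934 and 944, against 575 and 2124 as deposited; the share of calls that were higher was 54.8%, 51.1% and 21.3% in these 3 settings. With 1 library left out, where the lone library of a group is assumed to vary like the others, higher calls ran between 198 and 613, lower calls between 619 and 1495, and called list members between 178 and 298, against 368 of 1045. After rescaling (chosen after seeing the data) lower calls were 531 without KO 1 and 619 without KO 2, and list members called were 239 without KO 1. Hdac3 kept its direction and its call in all 13 alternatives, with log2 fold changes from −0.81 to −0.64. The main fit did not pair the libraries by replicate number. The correlation of deviations of KO 1 and WT 1 was −0.0955, which cannot show whether they were paired by design. With a replicate block 559 genes were higher and 1968 lower. Sst changed sign to 0.33 after rescaling without KO 1. Single genes were followed through every alternative only for most of those printed in the text. Of 97 of these called as deposited, 19 lost the call in at least 1 alternative. The 97 do not stand for all calls or for all genes named by the rule. The cause was not tested. Genes outside the FPKM table have only the authors' values and no alternative. Few replicates and low FPKM limit what could be detected.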

Other observations

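Several lists not described above had more higher than lower calls. Of 14 meningeal fibroblast genes 7 were higher and 0 lower, 8 and 0 after rescaling, with a median log2 fold change of 0.26, and 1, 5, 5 and 5 were higher without KO 1, KO 2, WT 1 and WT 2. Their summed level overlapped, with 519 and 471 FPKM in KO and 447 and 477 FPKM in WT, and most of it came from Ptgds, a prostaglandin synthase that did not pass (326 and 289 FPKM in KO, 298 and 323 FPKM in WT). Of 20 genes of the injury response list 9 were higher and 1 lower, 9 and 0 after rescaling, and 3, 6, 6 and 7 were higher in the same left-out settings. Of 8 complement and secreted inflammatory genes 4 were higher and 0 lower, 5 and 0 after rescaling, and 0, 3, 3 and 2 were higher. Of 18 long noncoding RNAs 6 were higher and 3 lower, 7 and 1 after rescaling, and 4, 2, 6 and 5 were higher. Of 21 proteoglycan and tenascin genes 6 were higher and 4 lower, 9 and 2 after rescaling, and 2, 5, 5 and 4 were higher.

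In several other lists the calls changed with rescaling. Over all genes 4.80% were higher and 17.7% lower, and 9.43% and 7.79% after rescaling. Of 27 nuclear receptor genes 4 were higher and 4 lower, 6 and 1 after rescaling, and 1 was higher and 1 lower without KO 1 and likewise without KO 2. Of 16 genes of the insulin-like growth factor system 1 was higher and 2 lower, 4 and 1 after rescaling, and 0 were higher without either KO library, while 1 was lower without KO 1 and 0 without KO 2. Of 15 endothelial and pericyte genes 1 was higher and 1 lower, 4 and 0 after rescaling, and 0 were lower without KO 1, KO 2 or WT 1. Of 13 histone variant and linker histone genes 0 were higher and 1 lower, 2 and 0 after rescaling, and 0 were lower without KO 1, KO 2 or WT 1, whereas 3 were higher without WT 1 and 3 lower without WT 2. The sum of 4 erythroid genes was 447 and 361 FPKM in KO and 357 and 427 FPKM in WT, with overlap.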
